A study of Macaca fascicularis with 34 samples.

Results

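Transcripts of 8 transcription factor genes of the primitive streak were followed through 34 single cells of cynomolgus monkeys. The genes are T, EOMES, MIXL1, GSC, LHX1, EVX1, MESP1 and TBX6, chosen by name from the 28551 genes of the deposited table. Each of the 8 had 1 row in it, listed as protein-coding. The table places MIXL1 on chromosome 1, EOMES on 2, EVX1 on 3, T on 4, GSC and MESP1 on 7, LHX1 on 16 and TBX6 on 20, with no coordinates. The other 7 genes are called the partners of T here.

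The primitive streak is the site where epiblast cells lose their epithelial order and move inward during gastrulation to form mesoderm and endoderm. NODAL, WNT and BMP signals induce its genes. T and EOMES, with MIXL1, act early in it, GSC and LHX1 mark its anterior end, EVX1 lies toward its posterior end, and MESP1 and TBX6 follow in early and presomitic mesoderm. Primordial germ cells of primates, from which the gametes descend, also transcribe T as they form.

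The study sequenced amplified cDNA of single cells, reading mostly 3' ends of transcripts (SC3-seq), from animals of the fascicularis subspecies. The 25 embryo cells were taken on embryonic day (E) 13, with 3 cells, on E14, with 1, on E16, with 11, on E17, with 2, and on E20, with 8. The 9 gonad cells, all from males, were taken on E36 (6), E47 (1) and E55 (2). No genotype, transgene or treatment is given in the labels, and no animal or cell type is named, so several cells may come from 1 animal. Each stage therefore stands as 1 sample: values are given per cell or as mean ± SD between cells, and no difference was tested.

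Levels are in RPM, reads scaled to a common total per cell, and differences are of mean log2(RPM + 1). A gene is called detected in a cell at 15 RPM or more. Depth ran from 472189 to 3556592 reads per cell, lowest in the E13 cells. Because the reads count 3' ends and are not scaled to length, and because amplification differs between genes, levels of 2 genes are not ranked against each other. Intervals on summed reads are exact Poisson 95% intervals that cover counting error only, since amplified cDNA without molecular identifiers does not count molecules. Letter codes in the sample titles move with stage. The codes are MS10 for E13, MS13 for E14, MS09 for E16, MS08 for E20 cells 1 to 7 and MS11 for E17 and all gonad stages. E20 cell 8 has MS09, as E16 does. Stage and code cannot be told apart outside code MS11, which covers E17 and the gonad stages, and code MS09, which covers E16 and E20 cell 8.

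Clustering of the cells without the 8 genes gave 26 germ-cell-like cells and 8 mesoderm-like cells. The germ-cell-like cells were 17 embryo cells and the 9 gonad cells, and 13 of 16 germ cell markers had a median of at least 15 RPM in them. The mesoderm-like cells were E16 cell 8 and E20 cells 1 to 7, with 9 of 10 mesoderm markers at that median. E16 cell 8, E17 cell 2, E20 cell 1 and E20 cell 5 held markers of other cell types beside those of their cluster. E16 cell 8 held 8 of 8 endoderm markers, with 5693 RPM summed, beside 8 of 10 mesoderm markers, with 2964 RPM summed. It also held 11 of 16 germ cell markers, and its name follows its cluster alone. E17 cell 2 held 12 of 16 germ cell markers and 4 of 8 endoderm markers, with 1556 RPM of the latter summed, and it joined the mesoderm-like cells when average linkage replaced Ward's method. E20 cell 1 held 1849 RPM of blood and endothelium markers, of which CDH5 was 1202 and CD34 636 RPM. E20 cell 5 held 11 of 16 germ cell markers, with 3674 RPM summed, beside 8 of 10 mesoderm markers. E20 cell 3 held 6 of 8 amnion markers, with 1847 RPM summed. The E47 cell held 8 of 10 gonadal somatic markers, with 20207 RPM summed against 3200 RPM of germ cell markers. E36 cell 5 held 6 of 10 gonadal somatic markers, with 832 RPM summed. Some results over germ-cell-like embryo cells are therefore given with and without E17 cell 2, and the rest include it.

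**Figure D1:**
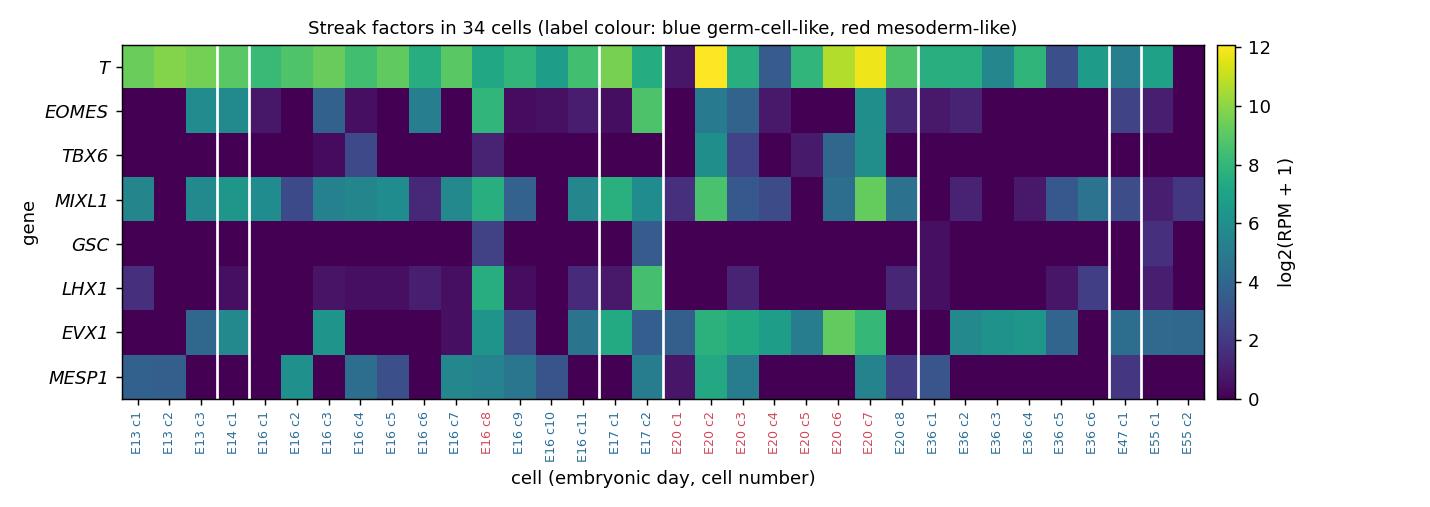
Level of the 8 genes (rows) in each of the 34 cells (columns, ordered by stage, white lines between stages) as log2(RPM + 1); blue cell names are germ-cell-like and red ones mesoderm-like. T was detected in 30 of 34 cells, whereas LHX1 was detected in 2 and TBX6 in 2.

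T, the T-box factor Brachyury, was the member most often present. It was detected in 30 of the 34 cells, and in 17 of the 17 germ-cell-like embryo cells. The E13 cells held 635, 931 and 747 RPM, and the E14 cell held 515 RPM. The 11 E16 cells ranged from 108 to 628 RPM with a median of 343. All 3 E13 cells thus lay above all 11 E16 cells, the sole member for which this held (T, 1 of 8). Of 14350 genes measured at these stages, 2.59% showed the same order. The E13 cells were also the shallowest and carry their own code, and the part of depth and code in this order was not tested.

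At E17 the pair of cells differed, with 781 RPM of T in cell 1 and 181 RPM in cell 2. The 8 E20 cells spanned the whole range seen in the study's embryos. Cells 2, 7 and 6 held 4381, 3593 and 1656 RPM, and cells 8, 5 and 3 held 427, 244 and 194 RPM. Cells 4 and 1 held 10.5 and 0.687 RPM, below the detection threshold. The 3 highest E20 cells lay above every cell of any other stage, and the 2 lowest lay below every other embryo cell. No other stage in the embryo spread as widely: the SD of log2(RPM + 1) was 4.0 at E20, 0.82 at E16 and 0.28 at E13.

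In the gonad T was lower and uneven. E36 cells held 197, 191, 48.0, 238, 6.79 and 103 RPM, the E47 cell 35.4 RPM, and the E55 cells 119 and 0 RPM. T was detected in 7 of the 9 gonad cells. Every gonad cell lay below the E13 and E14 cells, and the range overlapped with that of E16. In E55 cell 2, 0 reads of T were found.

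Ordered by mean RPM, the stages ran E20 (1313 ± 1746, SD, n = 8 cells), E13 (771 ± 149, n = 3), E14 (515, n = 1), E17 (481 ± 424, n = 2), E16 (347 ± 173, n = 11), E36 (130 ± 92.2, n = 6), E55 (59.4 ± 84.1, n = 2) and E47 (35.4, n = 1). Neighbours in this order had overlapping ranges, except that the E14 cell lay below all 3 E13 cells. The place of E20 rested on cells 2, 6 and 7.

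**Figure D2:**
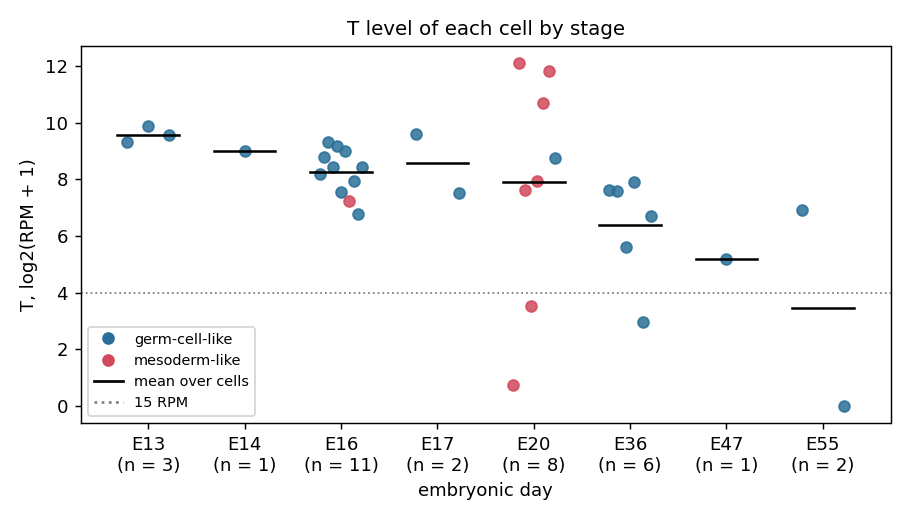
T level of each cell as log2(RPM + 1) by embryonic day; points are cells coloured by cluster, black bars are means over cells, and the dotted line marks 15 RPM. E13 cells sit between 635 and 931 RPM, while E20 cells reach from 0.687 to 4381 RPM.

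EOMES, the second T-box gene, which drives mesendoderm formation, was highest in E17 cell 2 and E16 cell 8. E17 cell 2 held 420 RPM and E16 cell 8 held 248 RPM. EOMES was detected in 5 further cells at lower levels: 64.3 RPM in E20 cell 7, 55.4 in E13 cell 3, 53.2 in the E14 cell, 35.7 in E16 cell 6 and 29.6 in E20 cell 2. The other 27 cells held at most 13.4 RPM. Gonad cells held 0 to 4.54 RPM, and 9 reads summed over the 9 cells gave 0.594 RPM (95% interval 0.271 to 1.13). Over germ-cell-like embryo cells the mean of 34.2 ± 101 RPM (n = 17) became 10.1 ± 19.5 RPM (n = 16) without E17 cell 2, so that cell carried most of it.

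TBX6, a T-box factor of presomitic mesoderm, was detected in 2 cells, both at E20. Cells 2 and 7 held 63.5 and 62.5 RPM. E20 cell 6, at 14.98 RPM, lay just under the threshold, followed by E16 cell 4 with 5.38 RPM and E20 cell 3 with 4.47 RPM. These E20 cells include the 3 with the most T. No read of TBX6 was found in the E13, E14, E17 or gonad cells. Over the gonad's 15157979 reads, 0 reads allow up to 0.198 RPM, whereas over the 1898109 reads of E13 they allow 1.58 RPM.

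MIXL1, a homeobox gene induced by NODAL and BMP signals, was the partner most widely shared with T in germ-cell-like embryo cells. It was detected in 12 of these 17 cells, which ranged from 0 to 202 RPM with a median of 45.5. E17 cell 1 was the highest of them. E20 cells 7 and 2 held 611 and 395 RPM, above every other cell, and E16 cell 8 held 188 RPM. The other mesoderm-like E20 cells held 0 to 19.7 RPM. In the gonad MIXL1 was detected in 1 of 9 cells (E36 cell 6, 23.5 RPM).

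LHX1 and GSC, the anterior streak genes, were highest in the same pair of cells. LHX1 reached 372 RPM in E17 cell 2 and 183 RPM in E16 cell 8, and at most 3.71 RPM in each of the other 32 cells. GSC never reached 15 RPM. Its highest level was 10.4 RPM (29 reads) in E17 cell 2, followed by 4.03 RPM (9 reads) in E16 cell 8. Besides these, GSC had 2 reads in E55 cell 1 and 1 read in E36 cell 1. Over the 16 other germ-cell-like embryo cells, 0 reads of GSC in 34503643 allow up to 0.0870 RPM. The cells with the most LHX1 were thus also the cells with the most GSC and EOMES, with 181 and 150 RPM of T.

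EVX1, a homeobox gene of the posterior streak, had a different distribution from the others. In the mesoderm-like E20 cells it was detected in 6 of 7, at 583 RPM in cell 6, 267 in cell 7, 220 in cell 2, 160 in cell 3, 107 in cell 4 and 32.9 in cell 5, with 11.7 RPM in cell 1. E20 cell 4 therefore held EVX1 with T at 10.5 RPM. In germ-cell-like embryo cells EVX1 was detected in 5 of 17, highest in E17 cell 1 at 166 RPM, and its median there was 0. In the gonad it was detected in 6 of 9 cells, with a mean of 30.4 ± 31.0 RPM. The 3 highest gonad cells, E36 cells 4, 3 and 2, held 82.8, 73.9 and 50.5 RPM. The E55 cells, at 16.4 and 15.9 RPM, lay just inside the threshold and E36 cell 5, at 14.3 RPM, just outside it.

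MESP1, a basic helix-loop-helix factor of nascent and cardiac mesoderm, was detected in 9 cells, all from embryos. E20 cell 2 held 156 RPM, and E16 cells 2 and 7 held 67.3 and 48.2 RPM. E20 cell 7, E16 cell 8, E17 cell 2 and E20 cell 3 followed with 42.0, 40.3, 33.2 and 32.6 RPM, and E16 cells 9 and 4 with 25.9 and 19.9 RPM. Both E16 germ-cell-like cells at the top of this order had EOMES at 0 reads. In the gonad MESP1 was detected in 0 of 9 cells, the highest being E36 cell 1 with 8.03 RPM.

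The cells differed in which partners came with T. In most germ-cell-like embryo cells T came with few partners: a cell held 0 to 4 of the 7, with a median of 1. Counting each partner in each cell, 27 of 119 combinations (22.7%) were detected, and 20.5% without E17 cell 2. Of all 28551 genes, 5102 to 7184 reached 15 RPM in these cells, so the partners were detected about as often as genes at large. E13 cell 2 held 931 RPM of T with 0 partners detected, and E16 cell 10 held 108 RPM of T with 0. The partners of T in these cells were mostly MIXL1 (12 of 17 cells), then EVX1 and MESP1 (5 of 17 each) and EOMES (4 of 17).

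E20 cells 2 and 7 held a broad set. Beside T they had 5 partners detected, EOMES, MIXL1, EVX1, MESP1 and TBX6, with GSC and LHX1 at 0 reads. E20 cell 6 had T with EVX1 and MIXL1, and EOMES and MESP1 at 0 reads. The 4 other mesoderm-like E20 cells held 0 to 2 partners. Over the 7 mesoderm-like E20 cells, 16 of 49 combinations (32.7%) were detected. Of all 28551 genes, 5504 to 7658 reached 15 RPM in these cells.

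E17 cell 2 and E16 cell 8 were the cells in which LHX1 was detected. E17 cell 2 had EOMES, LHX1, MIXL1 and MESP1 detected, and E16 cell 8 had these and EVX1, the posterior gene, at 75.6 RPM. Together they had 38 of the 41 GSC reads of the study, below the detection threshold in both. FOXA2, a factor of anterior streak and endoderm, stood at 192 RPM in E17 cell 2 and 25.5 RPM in E16 cell 8. CER1, a secreted NODAL inhibitor, stood at 863 and 51.5 RPM. Both cells also held the endoderm markers given above, a list that includes FOXA2 and CER1. E16 cell 8 had 5693 RPM of endoderm markers with LHX1 at 183 RPM. E17 cell 2 had 1556 RPM with LHX1 at 372 RPM. The part of endoderm transcripts in the LHX1 level was not tested.

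A measure relative to T is the number of partner reads per 100 T reads, set between cells for the same partner. It is high where T is low as well as where the partner is high. For EOMES this was 232 in E17 cell 2 and 166 in E16 cell 8, against 0.674 and 1.79 in E20 cells 2 and 7. The median over germ-cell-like embryo cells was 0.252. For MIXL1 the E20 pair, with 9.02 and 17, lay within the range of the germ-cell-like embryo cells (0 to 31.8, median 7.0), while E16 cell 8 had 126. MIXL1 in E20 cells 2 and 7 was thus the highest in RPM but not relative to T. For EVX1 the median over cells was 30.6 in the gonad, 0 in germ-cell-like embryo cells and 24.3 in the mesoderm-like E20 cells. E55 cell 2 and E20 cell 1, with 0 and 1 reads of T, held too few for a ratio and are left out of these medians.

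**Figure D3:**
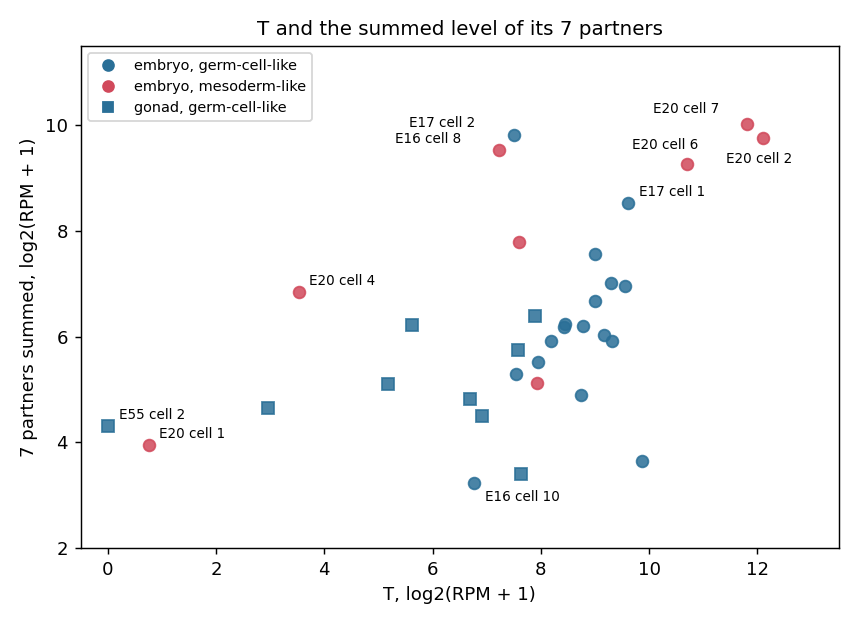
Level of T (horizontal axis) against the summed level of its 7 partners (vertical axis), both as log2(RPM + 1), for each cell; circles are embryo cells, squares gonad cells, colours give the cluster. E17 cell 2 and E16 cell 8 had 905 and 741 RPM of partners with T at 181 and 150 RPM, whereas E20 cells 2 and 7 had 864 and 1046 RPM with T at 4381 and 3593 RPM.

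**Figure D4:**
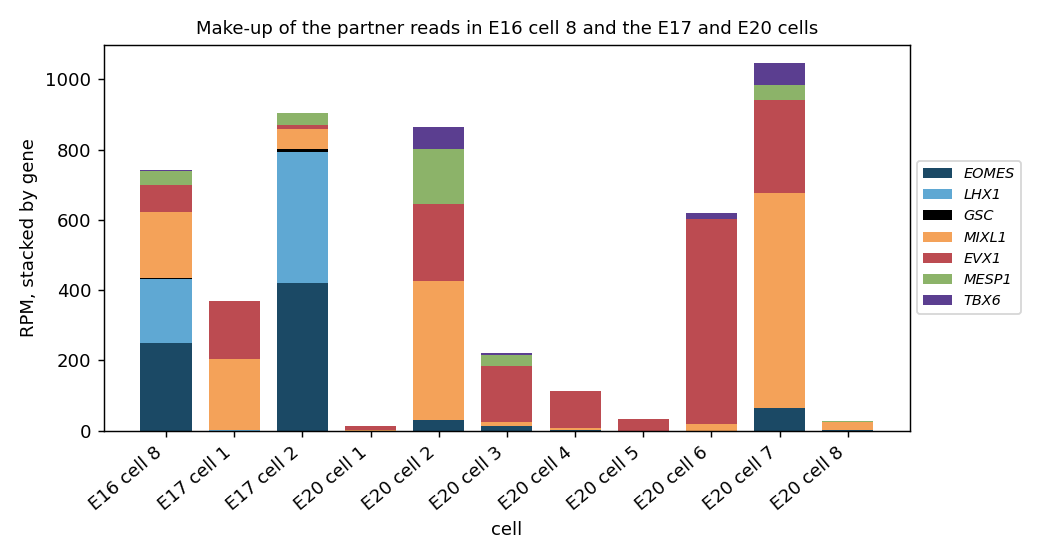
RPM of each partner, stacked, in E16 cell 8 and in the 2 E17 and 8 E20 cells. Across the bars, EOMES (420 RPM) and LHX1 (372 RPM) are highest in E17 cell 2, MIXL1 (611 RPM) in E20 cell 7 and EVX1 (583 RPM) in E20 cell 6; heights of different genes are not comparable.

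E17 cell 1 differed from its neighbour in the set it held. Beside T at 781 RPM it had MIXL1 at 202 RPM and EVX1 at 166 RPM, with EOMES at 0.373 RPM and GSC and MESP1 at 0 reads. FOXA2 and CER1 stood at 1.12 and 0 RPM in it. It held 11 of 16 germ cell markers and 1 of 10 mesoderm markers. Both E17 cells carry the same code.

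E20 against E16 asks how the genes differ 4 days apart, with stage, code and the share of mesoderm-like cells moving together (7 of 8 cells at E20, 1 of 11 at E16). Genes whose mean reached 1 RPM in 1 stage were taken as measured, and those that differed at least 2-fold as higher or lower. Of the 8 members 7 were measured: 2 were higher, EVX1 and TBX6, and 0 were lower in mean log2(RPM + 1). Over all 14998 genes measured, 13.9% were higher and 18.9% lower, and the median difference was -0.12.

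EVX1 stood at 173 ± 193 RPM at E20 (SD, n = 8 cells) and 16.4 ± 29.9 RPM at E16 (n = 11 cells), a log2 difference of 4.13. TBX6 stood at 18.3 ± 28.1 and 0.636 ± 1.62 RPM, a difference of 2.03. The ranges of both genes overlapped between the stages. For E20 cell 8 alone, which carries the code of E16 and is germ-cell-like, the differences from E16 were -1.85 for EVX1 and -0.39 for TBX6. They were 4.99 and 2.37 for the E20 cells of code MS08.

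T gave opposite signs on its 2 scales. Its mean log2(RPM + 1) was lower at E20 by a difference of -0.36, while its mean RPM was 3.78-fold higher. The 3 highest cells set the mean RPM, and the 2 cells under 15 RPM set the log2 mean. Without E20 cell 1, the cell with CDH5 and CD34, the difference was 0.66, and without E20 cell 2 it was -0.96. No direction is therefore given for T between these stages. For E20 cell 8 alone it was 0.49, and for the E20 cells of code MS08 it was -0.48. EOMES (0.29), MIXL1 (-0.18), LHX1 (-0.83) and MESP1 (-0.34) differed by less than 2-fold in mean log2(RPM + 1). With medians over cells, MIXL1 was -1.69 and MESP1 -1.66, at least 2-fold lower at E20, while EOMES was 0.51 and LHX1 -0.50. As the log2 ratio of mean RPM, MIXL1 was 1.53, which turns its sign and makes 3 partners higher, and EOMES was -0.99 and MESP1 0.58. LHX1 was -5.63 on that scale and -1.25 with the cells thinned to 400000 reads, and its difference was -0.19 without E16 cell 8.

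The other genes of the streak were read by role, in 6 lists of 60 genes chosen with earlier results of these data known. Of the 53 that were measured 28 were higher at E20 and 6 lower, with a median difference of 1.23 against -0.12 over all genes. Transcription factors were the largest group, 15 higher and 1 lower of 20 measured, with a median of 2.73. MSGN1, a factor of presomitic mesoderm, stood at 438 ± 656 RPM at E20 and 2.16 ± 7.15 RPM at E16. CDX1, a posterior homeobox gene, stood at 300 ± 415 and 7.70 ± 17.9 RPM. HAND1 and LEF1, of lateral mesoderm and WNT signalling, differed by 3.99 and 5.40 on the log2 scale. GATA4 was the one lower, with a difference of -1.94.

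Of the 11 ligands measured, 6 were higher and 2 lower. WNT5A stood at 417 ± 345 RPM at E20 and 31.4 ± 66.4 RPM at E16. FGF4 stood at 187 ± 286 RPM at E20, with 0 reads at E16, and WNT3A at 120 ± 194 and 0.163 ± 0.540 RPM. BMP4 differed by 4.07. The 2 lower were WNT3 (2.69 ± 3.54 against 26.9 ± 24.4 RPM) and NODAL (11.9 ± 22 against 41.3 ± 49.5 RPM), ligands at the start of streak induction.

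Of the 6 receptors and cofactors, 3 were higher, PDGFRA, APLNR and FGFR1, and 1 was lower, the NODAL coreceptor TDGF1 (20.7 ± 33.1 against 190 ± 181 RPM). Of the 8 antagonists measured 2 were higher, the BMP and activin inhibitor FST and the WNT inhibitor DKK1, and 2 lower, the NODAL inhibitors LEFTY1 and LEFTY2. LEFTY2 had 0 reads at E20 and a mean of 25.9 ± 42.5 RPM at E16. Of the 3 presomitic Notch genes measured, 0 differed at least 2-fold, and of 5 genes of epithelial transition and adhesion 2 were higher, FN1 and CDH1. Among 7 other T-box genes measured, 3 were higher: TBX3 (140 ± 117 against 43.1 ± 90.7 RPM), TBX20 (50.8 ± 75.6 against 1.56 ± 3.40 RPM) and TBX2 (4.15 ± 7.58 against 0.366 ± 1.21 RPM).

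**Figure D5:**
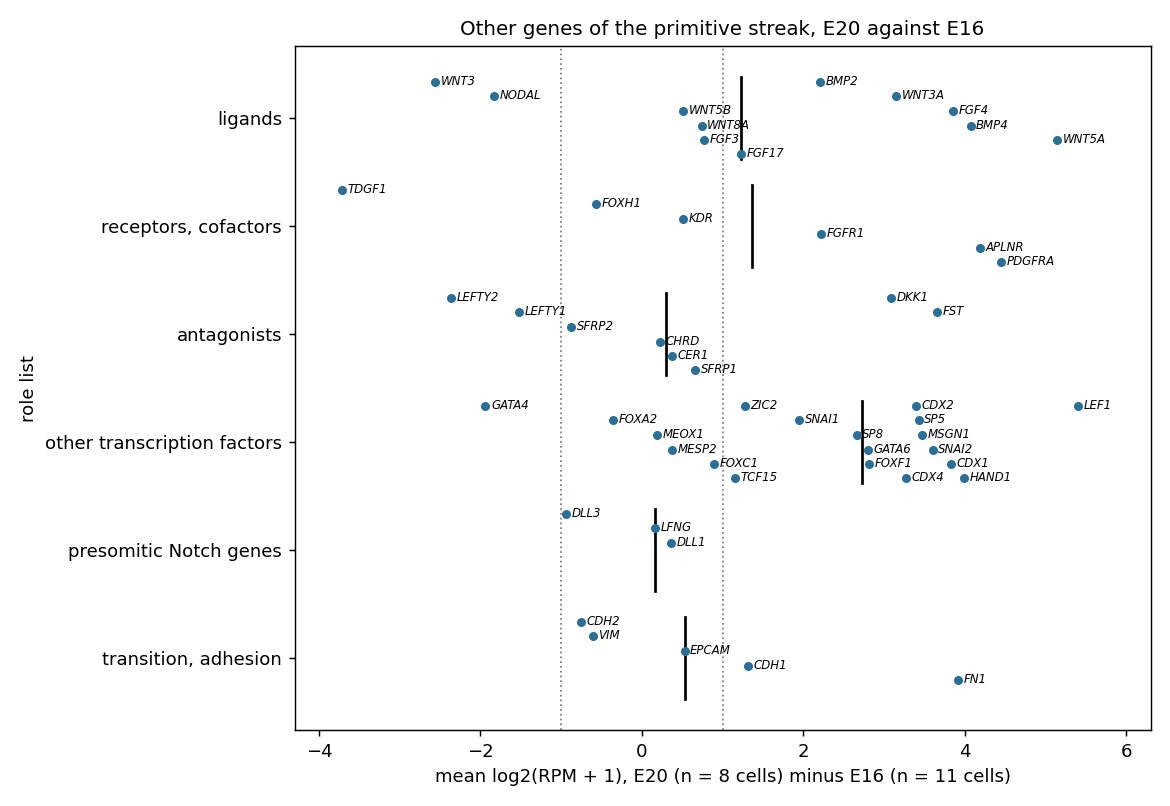
Difference of mean log2(RPM + 1), E20 minus E16, for measured genes of the 6 role lists (rows); black bars are medians over all measured genes of a list and dotted lines mark 2-fold. The transcription factors have a median of 2.73, while WNT3, NODAL, TDGF1, LEFTY1 and LEFTY2 lie to the left of the lower line.

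Within E20 these genes were unevenly spread among the cells. MSGN1 stood at 1414, 619 and 1471 RPM in cells 2, 6 and 7, the cells with the most T, and at most 0.843 RPM in the other 5. FGF4 stood at 255, 495 and 738 RPM in the same 3 cells and at most 10.9 RPM in the others, and WNT3A at 214, 541 and 199 RPM against at most 2.56 RPM. CDX1 stood at 1133, 525 and 587 RPM in them, and E20 cell 3 also held 146 RPM of it. HAND1 was distributed differently, highest in E20 cell 4 at 1533 RPM, where T was 10.5 RPM. E17 cell 2 held 0 reads of MSGN1, FGF4 and WNT3A, and E16 cell 8 held 23.7, 0 and 1.79 RPM of them.

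Gonad against germ-cell-like embryo cells asks how T and its partners differ between germ-cell-like cells of embryos and of the later male gonad, where stage, organ and, apart from E17, code move together. Of the 8 members 6 were measured, of which 4 were lower, T, EOMES, MIXL1 and MESP1, and 1 was higher, EVX1. Over all 14813 genes measured 14% were lower and 9.01% higher, with a median difference of -0.10. The ranges overlapped for each of the 8 members.

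T stood at 104 ± 88.4 RPM in the gonad (n = 9 cells) and 464 ± 232 RPM in the embryo cells (n = 17), a log2 difference of -3.05. It was -3.12 without E17 cell 2. In 5 gonad cells, E36 cells 1, 3 and 5, the E47 cell and E55 cell 2, a gonadal somatic gene (WT1, LHX9 or INSL3) reached 15 RPM. T in these 5 was 197, 48.0, 6.79, 35.4 and 0 RPM, and in the other 4 it was 191, 238, 103 and 119 RPM. Without the 5 cells the difference was -1.39. Over the 10 somatic markers, the gonad cells held 0 to 8 at 15 RPM, with 13.3 to 20207 RPM summed, highest in the E47 cell. The germ-cell-like embryo cells held at most 52.4 RPM summed. Of the 4 gonad cells kept, E36 cell 4 held 1 of these markers and E36 cell 6 held 2, with 85 and 74 RPM summed. The part of somatic transcripts in the T difference was not tested.

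MIXL1 stood at 4.99 ± 7.61 RPM in the gonad and 46.1 ± 47.4 RPM in the embryo cells, a difference of -2.81, and MESP1 at 1.19 ± 2.71 and 13.9 ± 19.6 RPM, a difference of -1.89. Both stayed at least 2-fold lower without E17 cell 2 (-2.73 and -1.72) and without the 5 gonad cells (-2.66 and -2.45). EOMES, at -1.40, was -0.98 without E17 cell 2 and so no longer 2-fold lower. EVX1 stood at 30.4 ± 31.0 RPM in the gonad and 20.5 ± 43.0 RPM in the embryo cells. Its log2 difference was 1.82 (1.92 without E17 cell 2 and 2.0 without the 5 gonad cells), but its mean RPM was 1.48-fold higher, under 2-fold. LHX1 differed by -0.55, and by -0.08 without E17 cell 2. MIXL1 and MESP1 were thus lower beside T in the gonad, while EVX1 was at least 2-fold higher on the log2 scale and not in mean RPM.

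Of the 47 streak list genes measured in this comparison 9 were lower and 3 higher, with a median of -0.24. Over all genes measured, 14% were lower and 9.01% higher, with a median of -0.10. Whether the list departs from all genes was not tested, and the genes named next are single genes of it. WNT3 stood at 2.28 ± 1.83 RPM in the gonad and 29.4 ± 25.2 RPM in the embryo cells, NODAL at 12.3 ± 34.8 and 46.9 ± 56.1 RPM, and HAND1 at 0.137 ± 0.410 and 24.6 ± 32.1 RPM. FOXH1, a cofactor of NODAL signalling, differed by -2.62 and TDGF1 by -2.03. The WNT inhibitor DKK4 was higher, at 132 ± 201 RPM in the gonad and 1.74 ± 7.19 RPM in the embryo cells, and was detected in 4 of 9 and 1 of 17 cells. The other 2 higher were FGFR1 (1.56) and FOXC1 (1.47).

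The genes most like each member were taken by Pearson's r of log2(RPM + 1) over the 34 cells, among 9997 genes, as a description; the cells share stage, code and cluster. For T these included IFITM1 (r = 0.714), FOXH1 (0.658), AP3B2 (0.578) and MAP7 (0.571). Within the 26 germ-cell-like cells they were ID1 (0.766), a target of BMP signalling, POU5F1 (0.653), ENPP2 (0.650), SOX17 (0.644) and KRT19 (0.643). Within the 8 E20 cells they were IFITM1 (0.959), NUP210 (0.953), PTBP1 (0.950), CXADR (0.945) and EPCAM (0.944). The lists for germ-cell-like and E20 cells share 0 genes, and IFITM1 is on that of E20 and of all cells. Unrelated lists of 5 out of 9997 genes seldom share a gene, so no contrast between the cells is drawn. Over 8 cells the highest of 9997 r values is also large for unrelated genes.

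For EOMES the genes included DBNDD2 (0.754), FGF17 (0.702) and CER1 (0.679). In E17 cell 2, the cell with the most EOMES, FGF17 stood at 134 RPM and CER1 at 863 RPM. For MIXL1 they were PIGF (0.669), ILF2 (0.640), HMGB3 (0.638), ZIC2 (0.631) and STOX2 (0.629). For EVX1 they were TBX3 (0.684), CDK8 (0.681), SSR3 (0.652), ENO1 (0.650) and BCAT1 (0.646). For MESP1 they were PTK2B (0.624), UNC13A (0.592), RBFOX3 (0.579), APBB3 (0.576) and ZSCAN10 (0.574). LHX1, GSC and TBX6 were detected in fewer than 3 cells and were not ranked.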

How the data were processed

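The 8 members and all gene lists were chosen with earlier results of these data known. The authors deposited 1 table of log2 values, log2(RPM + 1), which were back-transformed with a pseudocount of 1. Each cell's depth was recovered from the step between its low values, of which 99.75% to 100% were whole within 0.1 read. Per the submitters' processing notes the tools were Cufflinks 2.2.0, TopHat 1.4.1 and cutadapt 1.3, with no roles named. No genome build is given in the sources used here. The values therefore carry the submitters' assignment of 3' reads to genes: a gene whose 3' end is poorly annotated would be undercounted. Cells were grouped by labelled stage and clustered (Ward, 1000 most variable genes with 15 RPM in at least 3 cells, members left out) with Python 3.11.15 and SciPy 1.17.1. For 0 reads the limit given is 3 reads over the depth summed. The scripts were tested on simulated data. Named list genes were up to 4 per list, those highest or with the largest difference. Genes naming a count of 5 or fewer, FOXA2 and CER1 in single cells, FOXH1 and TDGF1 in the gonad, the single cells named and the gonad differences with cells left out were chosen after their values were seen. T is TBXT in RefSeq. A few genes that the naming rule picks are not reported here.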

Additional observations from a re-analysis of the deposited data

Results flagged for a closer look

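In 14 groups of 4 to 10 cells, formed by gene and stage, a cell set apart from the rest was sought by Dixon's 95% critical value. The screen picked out 3 values, all in E36 cells 1 and 6. For continuous values chance picks about 1 group in 20. That rate does not apply to GSC and MESP1 here, since with 0 reads in 5 of 6 cells any read in the other cell is picked out. GSC in E36 cell 1 stood at 0.401 RPM, which is 1 read. LHX1 in E36 cell 6 stood at 3.71 RPM. MESP1 in E36 cell 1 stood at 8.03 RPM. All 3 levels lie under the detection threshold of 15 RPM.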

How the results depend on the processing

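No paired analysis was possible because the labels give the cells no replicate numbers or animals. Taking E20 cell 8 alone turned the E20 minus E16 difference of EVX1 to -1.85 and of TBX6 to -0.39. With a pseudocount of 10 RPM, 1 partner was higher at E20 in place of 2, and T differed by 0.05. Counting any read as detection raised the share of detected partner and cell combinations to 50.4% in germ-cell-like embryo cells and to 55.1% in mesoderm-like E20 cells. Ranked by Spearman's rho, 1 of the 5 genes most like T was shared. Leaving out 1 cell at a time moved T between -0.96 and 0.66 (E20 minus E16) and between -3.33 and -2.35 (gonad minus embryo). It left 2 partners higher throughout and 26 to 31 streak list genes. Without the 5 gonad cells in which WT1, LHX9 or INSL3 reached 15 RPM, the gonad difference of T was -1.39. TMM and median-of-ratios scaling left the sign of both T differences, 2 partners and 28 streak list genes. Thinning to 400000 reads left both signs and 2 partners. At the median depth of 2001689 reads, low levels rest on few reads.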
